A study of Homo sapiens with 6 samples.

Results

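SAE1 is the smaller subunit of the enzyme that activates SUMO, and its mRNA was about 2-fold lower after siRNA against N6AMT1. It is described here with 7 other genes of the SUMO cascade (UBA2, SUMO2, SUMO3, PIAS1, SENP1, SENP3 and SENP6). These 8 genes were picked by symbol from the 62438 genes of the count table, with the SAE1 value known beforehand, so their differences between the groups are given as a description, with their errors, and are no independent evidence. Bulk RNA was sequenced from human breast cancer cells that carry the label MDA-MB-453. All were transfected with Lipofectamine RNAiMAX and 10 nM of siRNA, and were collected at 48 h. In the 3 si-N6AMT1 libraries the siRNA was directed against N6AMT1, a methyltransferase studied for adenine methylation of DNA, and in the 3 si-CN libraries it was a scrambled control. The labels do not say how many siRNA sequences were used or whether the 3 libraries of a group came from separate cultures, so p-values measure only the spread between these libraries.

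SUMO is a small protein that cells attach to lysines of other proteins, many of them nuclear. An E1 enzyme made of SAE1 and UBA2 activates SUMO, which is then passed on for conjugation. Ligases such as those of the PIAS family help choose the substrate, and proteases of the SENP family mature the precursors and remove SUMO again. SUMO2 and SUMO3 are nearly identical once mature and can form chains.

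Libraries held 19739247 to 21289740 counts assigned to genes. N6AMT1 itself had 60 to 72 counts in each si-N6AMT1 library and 135 to 141 in each si-CN library (log2 fold change -1.10 ± 0.119 SE, edgeR quasi-likelihood FDR = 3.65e-07 after Benjamini-Hochberg adjustment). Divided by its degrees of freedom, the chi-square of 2 libraries compared over genes was 1.35 to 1.69 within a group and 6.07 to 6.86 across groups. Beyond counting noise, libraries of a group differed by about 1.85% (edgeR's biological coefficient of variation), so small differences could be called. Markers went partly against the cell label. MDA-MB-453 is known as a luminal line, but SPDEF, a factor of luminal cells, was under 1 TPM in every library, and KRT19 averaged 0.797 TPM in si-CN, whereas KRT8, KRT18 and EPCAM were at 748, 726 and 455 TPM. The other luminal markers averaged 1.92 (GATA3), 5.34 (FOXA1), 26.2 (ERBB2) and 98.2 TPM (XBP1) in si-CN. ESR1 and PGR, hormone receptors said to be low in this line, were under 1 TPM in every library. Keratins of basal cells and vimentin were abundant, with KRT5 at 764, KRT14 at 150 and VIM at 653 TPM in si-CN. Of 9 luminal markers, 5 were at 10 TPM or more in every library and 1 (SPDEF) under 1 TPM in every library, and their summed level was 2060 to 2070 TPM in si-CN and 2120 to 2130 TPM in si-N6AMT1. Of 3 markers of other cell types, PTPRC and CD3E were under 1 TPM and COL1A1 averaged 17.2 TPM in both groups. The summed level of the 4 basal or mesenchymal markers was 1570 to 1580 TPM in si-CN and 1630 to 1650 TPM in si-N6AMT1 libraries, and the part of these differences in any result below was not tested.

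Before the values, the sequences on which the 3′ UTR results turn are shown. In earlier results from these libraries, the 7-base sequences TTCACAT and TCACATA, which overlap in the 8-base sequence TTCACATA, were found in the 3′ UTRs of many genes with lower expression in si-N6AMT1. They were looked for on the mRNA strand in the 3′ UTRs of the reference transcripts, with a 7-base match counted apart only where it was not part of the 8-base sequence. Windows of 30 bases are printed for SAE1 and for the other genes described here that hold the 8-base sequence, from GENCODE transcripts on GRCh37 (hg19), 5′ to 3′ on the mRNA strand, with the matched bases in capitals. The SAE1 windows lie on the plus strand at chr19:47713370-47713399 and chr19:47713596-47713625, and begin their match at bases 873 and 1099 of a 3′ UTR of 1385 bases. Windows of SENP6 (chr6:76427699-76427728), DESI2 (chr1:244870129-244870158) and SP100 (chr2:231410234-231410263) are on the plus strand, and that of UBA6 (chr4:68483125-68483154) is on the minus strand.
SAE1, first match: gctgtttgtgtTTCACATAtgttgtgaatt
SAE1, second match: gagttaaattgTTCACATtctagaatgtgt
SENP6: attatttcaagTTCACATAaccctaaaaaa
DESI2: atgggactcatTTCACATAatagaatgcct
SP100: tataacaaaccTTCACATAtacccctgaac
UBA6: attaaattttgTTCACATAtcctacccttt

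SAE1 (ENSG00000142230; chromosome 19, 47616531 to 47713893, plus strand, GRCh37) averaged 62.6 ± 0.606 CPM in si-N6AMT1 against 125.1 ± 2.84 CPM in si-CN (SD, n = 3 each). CPM are counts scaled to library size, with TMM factors. Single si-N6AMT1 libraries had 63.2, 62.0 and 62.5 CPM, and si-CN libraries had 128.4, 123.6 and 123.4 CPM (replicates 1 to 3). The groups lay far apart, and the gap between them was many times the spread within either. The log2 fold change was -1.0 (standard error 0.0303), and the 95% interval of the fold was 0.480 to 0.521. By log2 fold change SAE1 ranked 20 from the lowest of 17320 genes tested. Bulk libraries cannot tell fewer cells that express a gene from less of its RNA per cell.

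UBA2 (ENSG00000126261, chromosome 19, 34919257 to 34962156), the larger E1 subunit, which carries the catalytic cysteine, was at similar levels in both groups. Its libraries had 128.3, 131.0 and 133.1 CPM in si-N6AMT1 and 135.0, 129.2 and 132.6 CPM in si-CN. The ranges overlapped, and UBA2 was at 98.9% of its si-CN level (95% interval of the fold, 0.953 to 1.03). The ratio of SAE1 to UBA2 within a library does not depend on how libraries are scaled. On levels per transcript length (TPM), it was 0.782, 0.752 and 0.746 in si-N6AMT1 and 1.51, 1.52 and 1.48 in si-CN libraries. Thus SAE1 mRNA was above UBA2 mRNA in every si-CN library and below it in every si-N6AMT1 library.

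**Figure D1:**
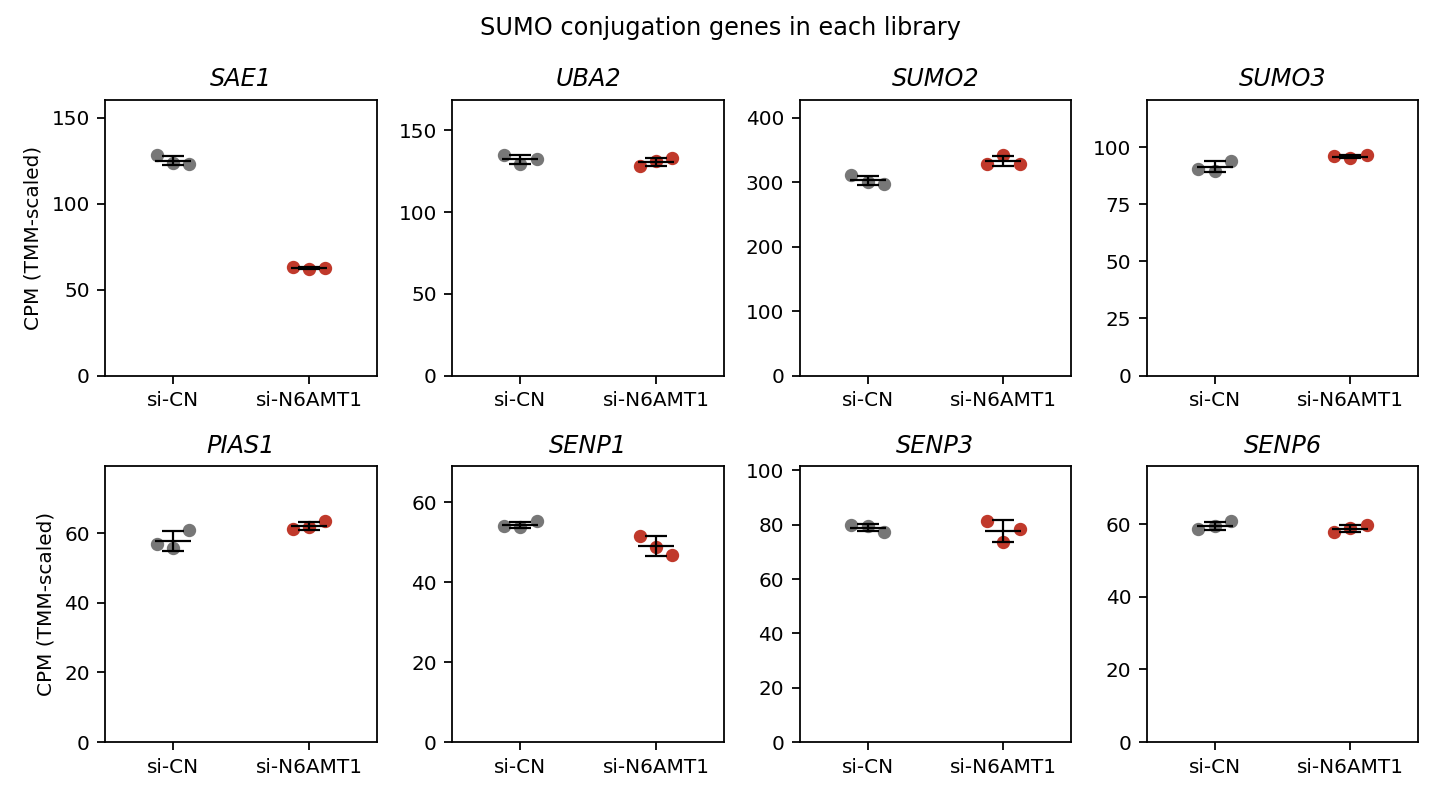
TMM-scaled CPM of the 8 genes in each library (points), with the group mean and SD (black bars), and each axis starting at 0. SAE1 lies at 62.0 to 63.2 CPM in si-N6AMT1 and 123.4 to 128.4 CPM in si-CN, while the other 7 genes are at 90.1% to 110% of their si-CN means.

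Group means of both modifier genes were slightly above those of si-CN. SUMO2 (ENSG00000188612, chromosome 17), the most abundant of the 8 genes, had 327.9, 342.3 and 328.3 CPM in si-N6AMT1 and 310.7, 300.8 and 296.8 CPM in si-CN. These groups did not overlap, and the log2 fold change was 0.14 (standard error 0.0244). SUMO3 (ENSG00000184900, chromosome 21) had 95.9, 95.1 and 96.6 CPM in si-N6AMT1 and 90.5, 89.5 and 94.1 CPM in si-CN. Again the groups did not overlap, but the lowest si-N6AMT1 library was only about 1 CPM above the highest si-CN library, and the log2 fold change was 0.07 (standard error 0.0297). The ratio of SUMO2 to SUMO3 on levels per transcript length (TPM) was 1.88, 1.98 and 1.87 in si-N6AMT1 and 1.89, 1.85 and 1.73 in si-CN libraries. These ranges overlapped, with means of 1.91 ± 0.0607 and 1.82 ± 0.0793 (SD, n = 3 each). Reads of SUMO2 can be shared with SUMO3 or with processed copies elsewhere. The 19 listed pseudogenes named after one of the 8 genes took at most 10 counts together in any library, and 15 of them had none.

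SUMO4, an intronless relative of SUMO2, was near the limit of detection, with 9, 18 and 4 counts in si-N6AMT1 and 22, 14 and 17 in si-CN. Its groups overlapped and the call was not reached (log2 fold change -0.77, standard error 0.390, FDR = 0.180). Without si-N6AMT1 replicate 2, it was called (log2 fold change -1.42, FDR = 0.0322 from edgeR's test). Without si-N6AMT1 replicate 3 it was at -0.38 (FDR = 0.578) and without si-CN replicate 1 at -0.57 (FDR = 0.448), so no size can be given for it.

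**Figure D2:**
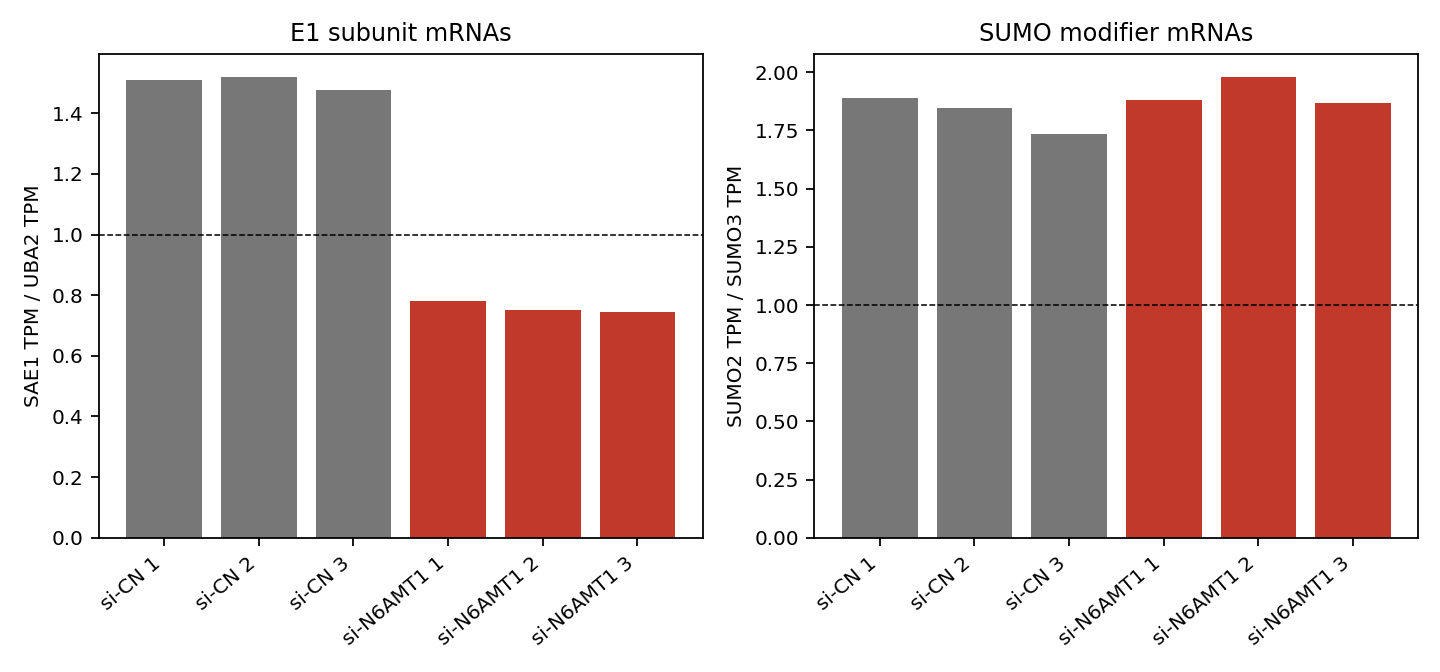
Left, TPM of SAE1 divided by TPM of UBA2 in each library, with a dashed line at 1. Right, TPM of SUMO2 divided by TPM of SUMO3, also with a line at 1. The E1 ratio is 1.48 to 1.52 in si-CN and 0.746 to 0.782 in si-N6AMT1, while the ratio of the modifiers overlaps between groups, at 1.73 to 1.98 across all 6 libraries.

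PIAS1 (ENSG00000033800, chromosome 15), a SUMO ligase, had 61.2, 61.9 and 63.4 CPM in si-N6AMT1 and 56.8, 55.7 and 60.9 CPM in si-CN. Its si-CN replicate 3 lay within 1 CPM of the lowest si-N6AMT1 library, although the groups lay apart, at a log2 fold change of 0.10 (standard error 0.0381). Of the 3 SENP genes among the 8, SENP1 was the one with separate groups. SENP1 (ENSG00000079387, chromosome 12), a nuclear SUMO protease, had 51.6, 48.7 and 46.7 CPM in si-N6AMT1 and 54.1, 53.7 and 55.2 CPM in si-CN. Every si-N6AMT1 library was below every si-CN library, at -0.15 on the log2 scale (standard error 0.0401). SENP3 (ENSG00000161956, chromosome 17), a nucleolar protease for SUMO2 and SUMO3, had 81.3, 73.5 and 78.4 CPM in si-N6AMT1 and 79.9, 79.4 and 77.5 CPM in si-CN. Here si-N6AMT1 libraries held both the highest and the lowest value, and the fold was 0.985 (95% interval, 0.938 to 1.03). A read-through transcript that joins SENP3 to EIF4A1 had 10 to 42 counts per library, beside 1501 to 1644 for SENP3. SENP6 (ENSG00000112701, chromosome 6), which trims SUMO chains, had 57.8, 58.9 and 59.6 CPM in si-N6AMT1 and 58.5, 59.4 and 60.8 CPM in si-CN. These ranges overlapped (fold 0.986, 95% interval 0.941 to 1.03). Of the summed TPM of 6 SENP genes, SENP1 made up 15.0% ± 0.546 in si-N6AMT1 and 16.1% ± 0.241 in si-CN (SD, n = 3 each), and the groups lay apart. SENP3 made up 41.3% ± 1.30 and 40.5% ± 0.585, and SENP6 12.03% ± 0.423 and 11.76% ± 0.241, and for both the groups overlapped. The shares of SENP5 (9.50% and 8.62%) and SENP7 (6.30% and 7.11%), in the same order of groups, lay apart as that of SENP1 did.

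All 8 genes passed the expression filter. At an FDR under 0.05 over all genes tested, 3 of the 8 were called, beside 21.3% of all tested genes. Of these, 2 were lower (SAE1 and SENP1), beside 11.5% of all genes, and 1 was higher (SUMO2), beside 9.78%. Libraries of the groups lay apart for 5 of the 8, beside 34.9% of all genes, with 2 lower (18.0% of all genes) and 3 higher (16.8%). SENP1 was not called by DESeq2, on all or on expressed genes, or without si-N6AMT1 replicate 3, which left 1 lower, and without si-CN replicate 3 PIAS1 was called too, which made 2 higher. Since the genes were chosen with this contrast known, nothing is read from these counts. The median log2 fold change was -0.02 over the 8 genes and 0.00 over all 17320.

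Levels of different genes were compared per transcript length. In si-CN, SUMO2 was highest with 212.7 ± 2.57 TPM (SD, n = 3), followed by SUMO3 (116.8 ± 3.83), SAE1 (110.4 ± 1.17), UBA2 (73.5 ± 1.10), SENP3 (68.4 ± 0.767), SENP1 (27.1 ± 0.574), SENP6 (19.9 ± 0.589) and PIAS1 (16.1 ± 0.858). No neighbours in this order overlapped over the 3 libraries. In si-N6AMT1 the order was the same except for SAE1, which at 55.1 ± 1.06 TPM (SD, n = 3) stood below both UBA2 (72.5 ± 0.928) and SENP3 (67.2 ± 3.99). This order depends on the length taken for each gene. With the merged length of all annotated exons, SUMO3 and SAE1 were tied in si-CN at 130.0 TPM each, SENP1 (22.4 TPM) overlapped PIAS1 (21.1), and PIAS1 overlapped SENP6 (20.3), but SAE1 still stood above UBA2 in si-CN (106.8 TPM) and below it in si-N6AMT1 (65.8 against 106.9 TPM). By merged length PIAS1 (23.0 TPM) also stood above SENP1 (20.5 TPM) in si-N6AMT1, without overlap.

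**Figure D3:**
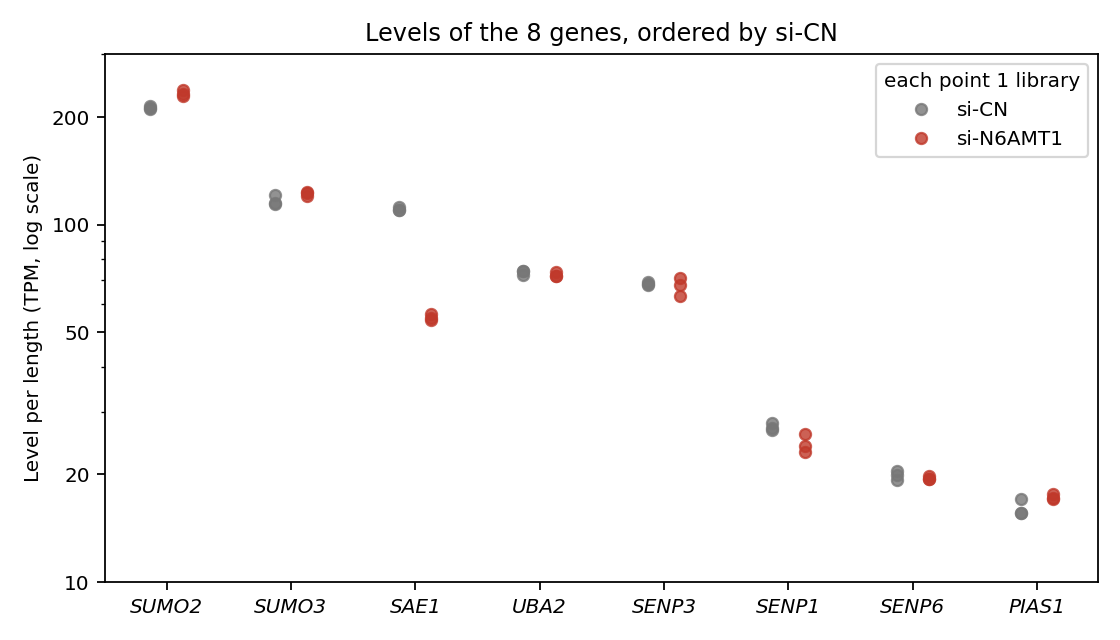
Levels per transcript length (TPM, log axis) of the 8 genes in each library, ordered by the si-CN mean. SAE1 moves from 109.7 to 111.7 TPM in si-CN to 54.2 to 56.2 TPM in si-N6AMT1, past UBA2 and SENP3, whereas the other genes keep their order.

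The rest of the pathway was read from a list of 22 further genes, all of which were tested. Of these, 4 were called lower (18.2%, beside 11.5% of all genes tested), 2 were called higher (9.09%, beside 9.78%) and 16 were not called. Their median log2 fold change was 0.02. DESI2, a cysteine protease of the DeSI family, fell most among the called genes, from 97.8 ± 0.914 to 74.0 ± 1.58 CPM (SD, n = 3 each; log2 fold change -0.40, SE 0.0303, edgeR FDR = 1.19e-09). SENP7, a protease with preference for SUMO2 and SUMO3 chains, had a log2 fold change of -0.23 ± 0.0521 (SE) in the same test (FDR = 0.00276). RANBP2, a nucleoporin with ligase activity that binds SUMO-modified RANGAP1, was at -0.14 ± 0.0284 (FDR = 0.00121), and ZNF451, a ligase for SUMO2 and SUMO3, was at -0.10 ± 0.0335 (FDR = 0.0388).

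The genes of the list that rose were RNF4 and DESI1. RNF4, a ubiquitin ligase that recognises SUMO chains, had 102.7 ± 3.21 CPM against 91.8 ± 2.06 CPM (SD, n = 3 each; log2 fold change 0.16, SE 0.0309, edgeR FDR = 0.000475). DESI1, the relative of DESI2, rose by a log2 fold change of 0.14 (FDR = 0.0275). The call of ZNF451 was weak, and was lost with any single library left out (FDR 0.0541 to 0.170). DESI1 was not called without si-N6AMT1 replicate 2 (FDR = 0.153) or si-CN replicate 3 (FDR = 0.155). DESeq2 on genes with a mean of at least 1 TPM called neither ZNF451 nor DESI1 (adjusted p = 0.194 and 0.131), which left 3 lower and 1 higher.

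Among ligases that were not called, PIAS2 had a log2 fold change of -0.02 (FDR = 0.712), PIAS3 -0.09 (FDR = 0.0701) and PIAS4 0.14 (FDR = 0.0608) in edgeR's test. PIAS3 was called without si-N6AMT1 replicate 1 (FDR = 0.0163) and PIAS4 without si-N6AMT1 replicate 2 (FDR = 0.0112). The other SENP proteases, SENP2 and SENP5, had log2 fold changes of -0.07 and 0.09 and were not called (FDR = 0.184 and 0.191). Nor were PML, SP100 and DAXX, proteins of the nuclear bodies in which SUMO accumulates (log2 fold changes 0.01, 0.03 and 0.01, FDR = 0.812, 0.536 and 0.904), or RANGAP1, a classical SUMO substrate (0.06, FDR = 0.113). The remaining genes of the list, which were the ligases NSMCE2, TOPORS and TRIM28, the conjugation cofactor RWDD3, the protease USPL1 and the SUMO-directed ubiquitin ligase RNF111, had log2 fold changes of -0.01 to 0.08 and were not called.

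**Figure D4:**
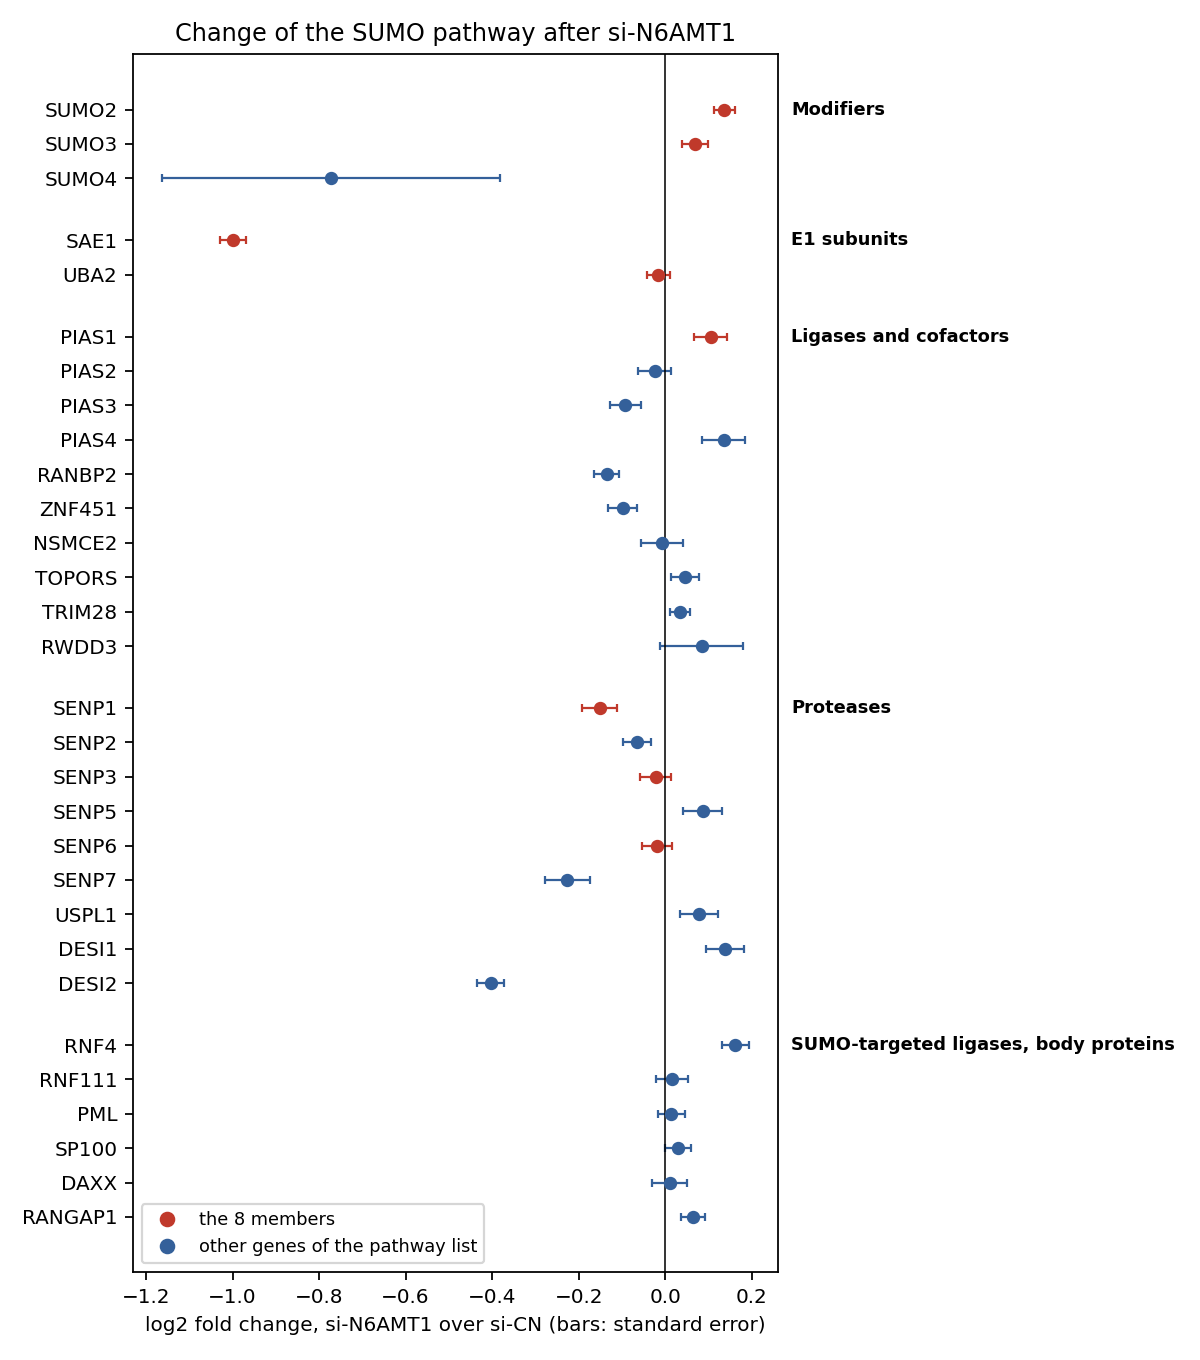
Log2 fold change of si-N6AMT1 over si-CN with its standard error for the 8 genes (red) and 22 further genes of the pathway (blue), ordered by role. SAE1 lies at -1.0 and the other 7 of the 8 genes between -0.15 and 0.14, and DESI2 at -0.40 is the next lowest after SAE1 apart from the sparsely counted SUMO4.

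SAE1 was also set beside the E1 enzymes of other ubiquitin-like proteins. All 7 were tested, of which 1 was lower and 1 higher (14.3% each, beside 11.5% lower and 9.78% higher of all genes tested). UBA6, an E1 for ubiquitin and FAT10, was lower, with a log2 fold change of -0.12 ± 0.0259 (SE; edgeR FDR = 0.00133). UBA7, the E1 of the interferon-induced modifier ISG15, rose from 21.96 ± 0.781 to 27.48 ± 1.31 CPM (SD, n = 3 each; log2 fold change 0.33, standard error 0.0552, FDR = 0.000131). UBA1, the main ubiquitin E1, had a log2 fold change of -0.03 (FDR = 0.376). UBA3 and NAE1, which together activate NEDD8 as SAE1 and UBA2 activate SUMO, had 0.03 and 0.06 (FDR = 0.694 and 0.293). Neither ATG7 (0.12, FDR = 0.117) nor MOCS3 (0.03, FDR = 0.889) was called.

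Genes near SAE1 on chromosome 19 had log2 fold changes from -0.36 to 0.35. The lowest value belonged to a sparsely counted gene that was not called (8 to 25 counts per library, standard error 0.338, edgeR FDR = 0.517). Of 11 tested genes within 200 kb of either end of SAE1, 1 was called lower (9.09%, beside 11.5% of all genes tested) and 2 higher (18.2%, beside 9.78%), with a median log2 fold change of 0.14. ARHGAP35, a GTPase-activating protein, fell by 0.15 on the log2 scale (FDR = 0.00277 from edgeR's test). ZC3H4, on the opposite strand, rose by a log2 fold change of 0.35 (FDR = 0.00539), with 10.5 ± 0.674 CPM against 8.21 ± 0.331 CPM (SD, n = 3 each). Its annotated gene bounds overlap those of SAE1 head to head, but its reference transcript starts at -17.1 kb from that of SAE1. DHX34, a helicase of nonsense-mediated decay, rose by 0.23 (FDR = 0.00358). In DESeq2 on all genes neither ZC3H4 nor DHX34 was called (adjusted p = 0.0715 and 0.0502).

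The genes with a pattern most like that of SAE1, by Pearson correlation of log2 CPM over the 6 libraries, were CALU (r = 0.9994), PTBP3 (0.9993), SDF4 (0.9992), CDC6 (0.9989) and ATP2A2 (0.9987). All 5 were lower in si-N6AMT1, with log2 fold changes from -0.60 (CALU) to -0.34 (SDF4). The 6 points share the split into groups, so that these correlations are a description.

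The 3′ UTR of SAE1 holds the 8-base sequence and a further 7-base match, as printed above. Of 13146 tested protein-coding genes with a 3′ UTR of at least 50 bases, 22.5% held any of these sequences. Among UTRs within 20% of the length of that of SAE1, 16.7% held any and 3.19% held the 8-base sequence. The 284 genes that hold the 8-base sequence and at least 1 other match were at -0.11 by median log2 fold change, and SAE1 was the lowest of them. Genes with the 8-base sequence alone (334) had a median of -0.10, those with only 7-base matches (2340) -0.05, and those with none (10188) 0.02. Both sequences were picked on these libraries, so this is a description. Whether the matches have a part in the SAE1 difference was not tested.

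Of the 8 genes, 6 held at least 1 match, and SUMO2 and SENP3 held none. Of the 22 other pathway genes 6 held a match, and of the 7 other E1 enzymes 1 did. UBA2, SENP1, SUMO3 and PIAS1 each had a single 7-base match, with log2 fold changes of -0.02, -0.15, 0.07 and 0.10. Among UTRs of similar length the share with a match was 24.5% for UBA2, 31.1% for SENP1, 16.4% for SUMO3 and 60.9% for the long UTR of PIAS1. For SENP6, which holds the 8-base sequence, it was 33.9%. Among the genes described here, those with the 8-base sequence differed widely. DESI2 (-0.40) and UBA6 (-0.12) were called lower, whereas SENP6 (-0.02) and SP100 (0.03), whose printed windows hold the same 8 bases, were not called. Conversely, SENP7, RANBP2 and ZNF451 were called lower and held neither sequence, and N6AMT1, the targeted gene, held neither in a 3′ UTR of 4174 bases. DESI1 (0.14), with a single 7-base match, was called higher, and SUMO4, PIAS2 and PIAS3, with 1 each, were not called. The calls of ZNF451 and DESI1 were lost in some alternatives, as given above.

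**Figure D5:**
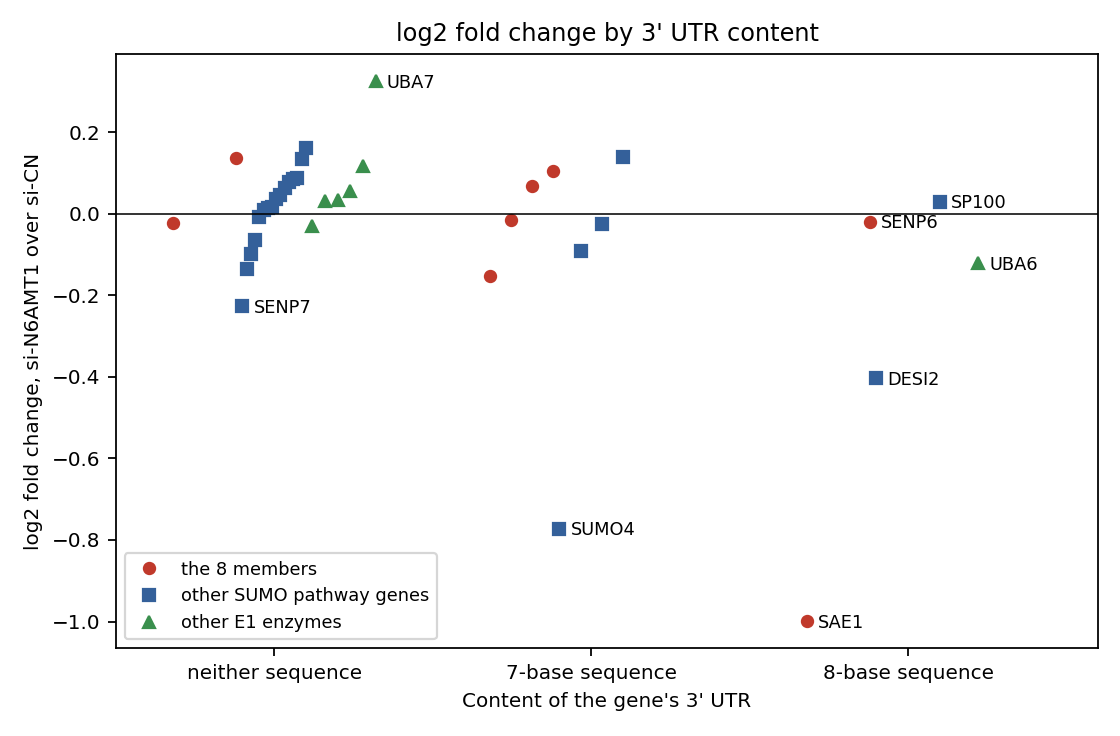
Log2 fold change of the 8 genes, the 22 other SUMO pathway genes and the 7 other E1 enzymes by the content of the 3′ UTR, each point 1 gene. Among the 5 genes with the 8-base sequence, SAE1 (-1.0) and DESI2 (-0.40) lie lowest, while SENP6 (-0.02) and SP100 (0.03) lie near 0.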

How the data were processed

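RNA-seq was analysed from 3 si-N6AMT1 and 3 si-CN libraries made with a stranded mRNA kit. The authors trimmed reads with Trim Galore, quantified transcripts of the hg19 annotation with kallisto (version 0.46.0) and summed them by gene. The table they deposited holds estimated counts (also called expected counts) of 62438 genes that were not normalized. Counts were rounded to whole numbers before use. The strand option of kallisto is not given in the sources used here, so overlapping genes and near-identical copies may share counts.

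The 8 genes and all lists were chosen with earlier results of these data known. Sample titles gave the groups and replicate numbers, and the column names were matched to them. GENCODE v44 on GRCh37 matched 62149 identifiers. The main test was the quasi-likelihood test of edgeR (version 4.0.16, under R 4.3.3) without covariates, although the study used DESeq2. A minimum count of 10 in edgeR's filter left 17320 genes. TMM factors scaled the libraries. FDR stands for p adjusted over these genes by Benjamini-Hochberg, with 0.05 as the threshold. A standard error (SE) was taken as |log2 fold change| over the root of the F statistic, and 95% intervals assume a normal error. TPM used the reference transcript's length for each gene. The test was checked on simulated counts.

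The text names the 8 genes, N6AMT1, the genes of the SUMO and E1 lists, tested genes within 200 kb of SAE1 (by name where called), pseudogenes as sums and the 5 genes most correlated with SAE1 by log2 CPM. Cell markers were listed apart. Some listed genes are not reported here, and were left out of the lists, counts and plots whatever their values, and the SUMO2 to SUMO3 ratio took the place of modifier shares. PECAM1, a listed marker, was not matched and not used. Alternatives were RLE scaling, no filter, DESeq2 (version 1.42.0) on all or on expressed genes, limma-voom (limma 3.58.1), a replicate block, merged exon length and leaving out each library.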

Additional observations from a re-analysis of the deposited data

How the results depend on the processing

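SAE1 kept a log2 fold change of -1.01 to -0.98 over the 12 alternatives to the fit, and that of N6AMT1 ran from -1.18 to -1.04 over 11 of them. DESeq2 on all genes, where N6AMT1 had an adjusted p of NA, is not in the range of N6AMT1. Log2 fold changes of the other 7 genes moved by less than the spread between replicates, and SENP3, at -0.05 to 0.02, had no fixed sign. Fewer genes were called by DESeq2, 1139 lower and 796 higher on all genes and 1240 and 930 on genes with at least 1 TPM, against 1993 and 1694. Of the 8 genes, DESeq2 called 1 lower under either choice, against 2, and with each library left out 1 to 2 were called lower and 1 to 2 higher. With DESeq2, 1 gene of the pathway list was higher under either choice, against 2, and 0 of the genes beside SAE1 on all genes. With each library left out, 1 to 2 genes of the pathway list were higher, with 1 only without si-CN replicate 3. Near 0, the sign turned for genes that were not called: DAXX (-0.0199 to 0.0364), MOCS3 (-0.0233 to 0.110), NSMCE2 (-0.0322 to 0.0190), UBA3 (-0.00914 to 0.0788), RWDD3 (-0.0187 to 0.157), RNF111 (-0.00821 to 0.0288) and PML (-0.00448 to 0.0307). The cause of these changes was not tested. Same-numbered libraries did not deviate together (r = -0.038, -0.042 and 0.010), which gave no sign of pairing. Counting noise could hide a small shared deviation, so pairing is not settled by these values. With the replicate number as a block, 3 pathway genes were lower and 3 higher, SAE1 was at -1.0, and 1804 genes were called lower and 1522 higher.

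With merged exon length, si-CN levels were 130.0 (SAE1), 106.8 (UBA2), 351.6 (SUMO2), 130.0 (SUMO3), 21.1 (PIAS1), 22.4 (SENP1) and 84.7 TPM (SENP3). The SAE1 to UBA2 ratio was 1.22 in si-CN and 0.616 in si-N6AMT1, the SUMO2 to SUMO3 ratio 2.71 and 2.83, and the SENP1 and SENP6 shares of SENP mRNA (16.1% and 11.8% in si-CN by reference transcript) 11.0% and 9.97% in si-CN and 10.3% and 10.2% in si-N6AMT1, and SENP3 took 41.6% in si-CN. SUMO4, with 4 to 22 counts per library, is limited by depth.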
